A study of Mus musculus with 45 samples.

Results

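Apelin and its receptor were followed through the differentiation of mouse embryonic stem cells (mESCs) toward spinal cord cells. Apln encodes the secreted ligand and Aplnr its receptor, and they are 2 of the 11220 genes of the deposited table, taken from the rows with those gene symbols. They were chosen by their levels in D0 and D3, where both differed widely in these same libraries, so those levels, and any change of the 2 genes from D3, are given as a description, with no test. The table itself was cut by the authors to genes that passed a false discovery rate of 0.1 in 1 or more of their 12 comparisons of treated cultures, so calls between those groups are made among genes already picked for change. In the authors' deposited table the rate was under 0.1 in 2 of those comparisons for Apln and in 4 for Aplnr. With the groups described below, those of Apln were R4 with M4 and R4 with B6hr. Those of Aplnr were B7 with M7, B9 with M9, R4 with B6hr and B6hr with B5.

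The receptor, once called APJ, is a G protein-coupled receptor that couples to inhibitory G proteins and recruits arrestins. It is known from blood vessels and the heart, and in the early embryo it is expressed in mesoderm that leaves the primitive streak. It has a second ligand, Apela (also called Elabela or Toddler), which in zebrafish is needed for mesendoderm cells to move inward at gastrulation. Apelin is made as a longer precursor whose active peptides all share the carboxyl end.

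RNA was sequenced in bulk from 45 cultures in 15 groups of 3 libraries. The M groups received 100 nM retinoic acid (RA) together with 10 ng/ml BMP4 for up to 48 h from day 3. The B groups received RA for 24 h from day 3 and then RA with BMP4 for up to 24 h. The R groups received RA alone and are the controls for M and B. M and R were sampled on days 4, 5, 7 and 9, and B on days 5, 7 and 9, while B6hr and R6hr were taken 6 h into the second 24 h. D0 held the undifferentiated mESCs. D3 held neuromesodermal progenitors, made with basic FGF and the WNT activator CHIR, the stage that all treated cultures had passed through. On days 7 and 9 BMP4 had been stopped since day 5, and M differs from B both in the length and in the start of the BMP4 exposure. Values are the authors' normalized levels, which carry no unit and are not read counts, so the depth behind each value is unknown. The series' design text gives 3 independent differentiations, but the labels do not tie a replicate number to one of them, so p-values measure the spread between these libraries. In bulk RNA, fewer cells of a type and less RNA per cell cannot be told apart.

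Some libraries stood apart from others of their group. T, the mesoderm factor Brachyury, stood at 14602 in D3 replicate 1, against 933 and 706 in replicates 2 and 3. Tubb3, a tubulin of neurons, ran the other way there, at 273 against 5477 and 4967. The pluripotency factor Pou5f1 stood at 22336 in D0 replicate 3, against 3064 and 2678 in replicates 1 and 2, with Tubb3 at 2171 against 6070.5 and 8907. The tubulin was thus high in libraries labelled as stem cells or progenitors. R4 replicate 2 had Meox1, a somite gene, at 11739, against 3765 and 2896 in replicates 1 and 3. B5 replicate 3 had it at 5095, against 1588 and 2043 in the other libraries of B5. No gene was at 0 in any library.

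Apln lies on mm10 chromosome X, 48025146 to 48034853, minus strand. Aplnr lies on chromosome 2, 85136225 to 85139923, plus strand, and Apela on chromosome 8, 65028417 to 65037336, minus strand. All 3 are protein-coding genes of GENCODE M21, and Apln and Aplnr overlap no other gene there. Their identifiers are ENSMUSG00000037010 for Apln, ENSMUSG00000044338 for Aplnr and ENSMUSG00000079042 for Apela. Apela shares its strand and most of its span with the processed transcript Gm45886, so reads of the pair may have been split in counting, and Apela values are uncertain to that extent. The ends of the precursors are shown because the receptor is bound by the carboxyl end of each ligand. Each line gives the last 13 codons before the stop codon, 5′ to 3′ on the coding strand, with the final codon in capitals, read from GENCODE M21 transcripts at chrX:48028302-48028340 and chr8:65035669-65035707, both on the minus strand of GRCm38.
Apln: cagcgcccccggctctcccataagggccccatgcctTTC
Apela: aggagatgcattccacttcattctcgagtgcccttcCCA
The Apln precursor has 77 codons before the stop and that of Apela 54.

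Both members had their highest group mean at day 3. In D3 replicates 1, 2 and 3 Apln stood at 3826, 1376 and 1553, against 9.13, 10.4 and 24.8 in D0. Aplnr stood at 3431, 365 and 183 in D3, against 2.67, 2.02 and 6.73 in D0. All D3 libraries lay above all D0 libraries for both genes, and for Apln also above all treated libraries. On the log2 scale of level + 1, D3 minus D0 was 7.13 for Apln and 7.12 for Aplnr, and these are the values that chose the members. The library with the highest T, D3 replicate 1, also held the highest level of both genes. Without it the differences were 6.67 for Apln and 5.88 for Aplnr. The summed level of 16 caudal progenitor markers was 81819 in that library and 15456 and 15474 in the other D3 libraries. Apela, by contrast, was lowest in that library, at 662, against 1359.5 and 1487 in D3 replicates 2 and 3.

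**Figure D1:**
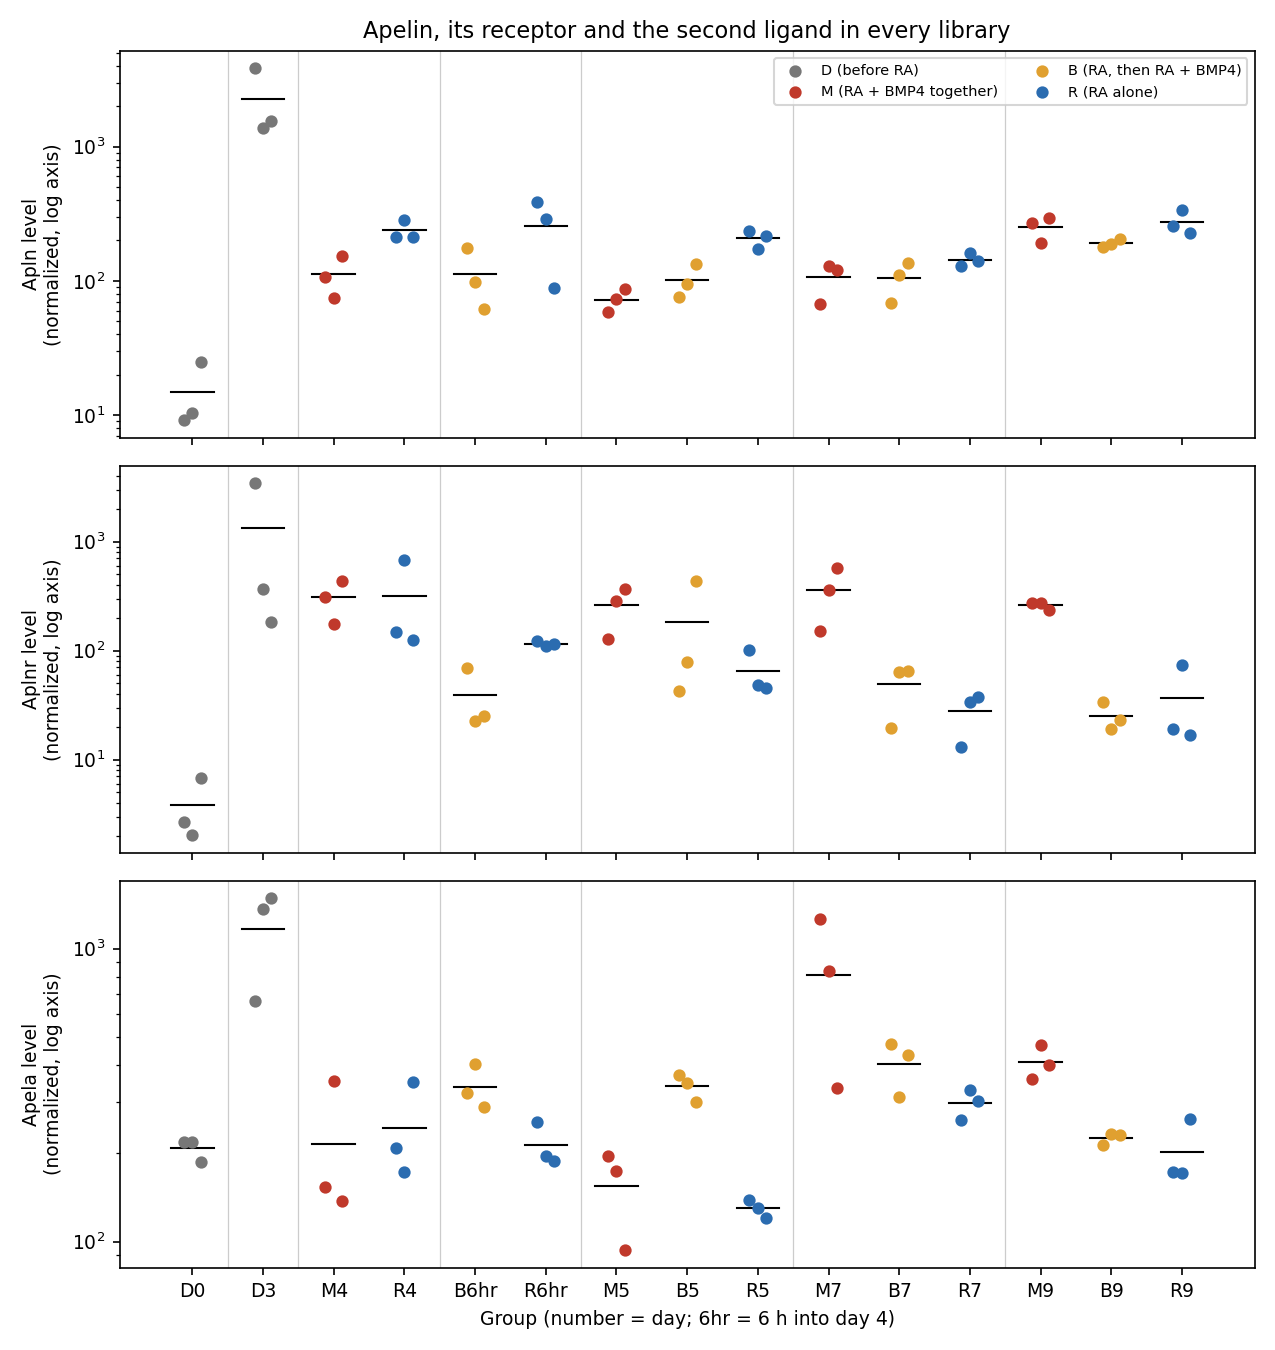
Normalized level (log axis) of Apln, Aplnr and Apela in each of the 45 libraries, by group; points are libraries, left to right replicates 1 to 3, and black bars are group means. Apln in the 3 D3 libraries lies between 1376 and 3826, above every treated library, while Aplnr in the M groups of days 7 and 9 lies between 152 and 567.

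Over the first 24 h after day 3 the ligand libraries of both arms lay below those of D3, while the receptor libraries reached into the D3 range. These values rest on the D3 libraries that chose the members, so for Apln and Aplnr they too are a description, with no test. Apln stood at 106, 74.4 and 154 in M4 and at 214, 286 and 214 in R4, all below the D3 libraries. On the log2 scale of level + 1, the mean of M4 minus that of D3 was -4.22 and that of R4 minus D3 was -3.09. Aplnr stood at 308, 176 and 439 in M4 and at 147, 679 and 124 in R4, inside or below the D3 range of 183 to 3431. Its differences were -1.09 for M4 minus D3 and -1.40 for R4 minus D3. Both differences rested on D3 replicate 1, since without that library they were 0.15 for M4 and -0.16 for R4.

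Tests were made with limma-trend on log2(level + 1) over all 11220 genes, with Benjamini-Hochberg adjustment and a call under 0.05. Apela, which the choice of members did not use, fell over the same 24 h, to 154, 354 and 137 in M4 and to 208, 174 and 351 in R4, below all D3 libraries. Its log2 change was -2.49 in M4 over D3 (adjusted p = 1.62e-06), where 32.6% of genes were called, and -2.24 in R4 over D3 (adjusted p = 1.24e-05), where 24.3% were called. The caudal progenitor list, whose summed level was 15456 to 81819 in D3, was at 3597 to 9244 in M4 and 3382 to 18363 in R4. Its part in these changes was not tested.

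On average over the sampled days, the receptor was higher in the M arm, where BMP4 was given with RA from day 3. Averaged over days 4, 5, 7 and 9, Aplnr was higher in M than in R by 2.24 on the log2 scale (SE 0.41, adjusted p = 1.96e-05), in a comparison where 59.5% of genes were called. Averaged over days 5, 7 and 9 it was higher in M than in B by 2.41 (SE 0.47, adjusted p = 7.62e-05), with 56.3% of genes called. The same average for B over R was 0.47 (SE 0.47, 95% confidence interval -0.50 to 1.43, adjusted p = 0.459), with 38% called. The ligand was lower in both BMP4 arms. Averaged over the same days, Apln was lower in M than in R by -0.82 (SE 0.21, adjusted p = 0.00139) and lower in B than in R by -0.69 (SE 0.25, adjusted p = 0.0266). The B over R call was lost without B5 replicate 1 (adjusted p = 0.0595), B7 replicate 1 (0.0666) or R9 replicate 2 (0.056). Between M and B the ligand differed by -0.02 (95% confidence interval -0.52 to 0.48, adjusted p = 0.948).

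On day 7 the receptor was higher in M than in both other arms. Aplnr stood at 152, 359 and 567 in M7, at 19.4, 63.8 and 65.3 in B7 and at 13.1, 33.6 and 37.5 in R7. All M7 libraries lay above all B7 and R7 libraries, and B7 and R7 overlapped. The log2 change was 3.57 in M7 over R7 (SE 0.82, adjusted p = 0.000663), an 11.9-fold difference, where 43.5% of genes were called. In M7 over B7 it was 2.83 (SE 0.82, adjusted p = 0.00645), with 41.6% called. In B7 over R7 it was 0.74 (SE 0.82, 95% confidence interval -0.93 to 2.41, adjusted p = 0.546), with 23.7% called.

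On day 9 the receptor was again higher in M than in both other arms. Aplnr stood at 273, 274 and 238 in M9, at 33.6, 19.0 and 23.2 in B9 and at 19.3, 73.5 and 17.0 in R9. The M9 libraries lay close together and above all others of the day, and R9 replicate 2 was the highest of the rest. The log2 change was 3.12 in M9 over R9 (SE 0.82, adjusted p = 0.00212), with 51% of genes called. In M9 over B9 it was 3.35 (SE 0.82, adjusted p = 0.00127), with 51.5% called. In B9 over R9 it was -0.23 (SE 0.82, adjusted p = 0.883), with 11.8% called.

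On days 4 and 5 the receptor did not pass the test in any treatment comparison. On day 5 Aplnr stood at 127, 282 and 369 in M5, at 42.8, 78.0 and 434 in B5 and at 101, 48.7 and 45.4 in R5. M5 lay above R5 in every library, and B5 replicate 3, the B5 library high in Meox1, lay above all of M5. The log2 change was 1.94 in M5 over R5 (SE 0.82, adjusted p = 0.0533), where 44.3% of genes were called. It was called with the compared libraries alone (adjusted p = 0.0158), without the D0 and D3 libraries (0.0273), and without M5 replicate 1 (0.0405) or R5 replicate 1 (0.0435). For M5 over B5 it was 1.05 (SE 0.82, adjusted p = 0.418), with 17.8% of genes called. For B5 over R5 it was 0.89 (SE 0.82, adjusted p = 0.583), with 5.99% called, and without B5 replicate 3 it was -0.07. On day 4 the change in M4 over R4 was 0.31 (SE 0.82, adjusted p = 0.874), with 14.1% called. Without R4 replicate 2, the R4 library high in Meox1, it was 1.09 (adjusted p = 0.493).

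After 6 h of BMP4 both members lay lower in B6hr than in R6hr without passing the test. Aplnr stood at 69.9, 22.6 and 25.0 in B6hr, against 123, 110.2 and 114 in R6hr. The groups did not overlap, and the log2 change was -1.73 (SE 0.82, adjusted p = 0.245), in a comparison where 0.0178% of genes were called. Apln stood at 176, 98.6 and 61.3 in B6hr, against 386, 289.8 and 88.3 in R6hr. Each Apln value was lower than that of the same number in R6hr, the groups overlapped, and the log2 change was -1.06 (SE 0.43, adjusted p = 0.189). This was the only treatment comparison whose replicate numbers met the rule for pairing, which was applied to these same libraries. The labels give no pairing. With the replicate block and the compared libraries alone, the adjusted p was 0.00484 for Aplnr and 0.00633 for Apln, and 2902 genes were called in place of 2. That fit was added after the data were seen and rests on a pairing found in the data, so it is not separate support. The caudal progenitor list summed to 3079.6 to 6955 in B6hr and to 9609.9 to 14184 in R6hr, without overlap. Its mean log2 level did overlap, at 6.49 to 7.63 in B6hr and 7.57 to 7.94 in R6hr. With all libraries in the fit, 0 of its 16 markers were called, beside 0.0178% of all genes. The part of this list in the values of Apln and Aplnr was not tested.

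On days 4 and 5 the ligand levels of the BMP4 groups lay under those of RA alone, and 1 of the 3 comparisons with R groups passed the test. On day 5 Apln stood at 58.5, 72.7 and 86.6 in M5, at 75.8, 95 and 134 in B5 and at 237, 173 and 217 in R5. Every M5 and every B5 library lay below every R5 library, while M5 and B5 overlapped. Apln fell in M5 relative to R5 with a log2 change of -1.52 (SE 0.43, adjusted p = 0.00441), a level 0.349 times that of R5. The change in B5 over R5 was -1.06 (SE 0.43, adjusted p = 0.137) and that in M5 over B5 was -0.46 (SE 0.43, adjusted p = 0.515). On day 4 the M4 libraries also lay below all R4 libraries, with a change of -1.13 (SE 0.43, adjusted p = 0.074). This was called without M4 replicate 3 (adjusted p = 0.0465) and without the D0 and D3 libraries (0.0458).

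On days 7 and 9 no treatment comparison of the ligand passed the test. Apln stood at 67.4, 130.2 and 121 in M7, at 69.0, 110.4 and 136 in B7 and at 129, 162 and 141 in R7. Both treated groups reached into the R7 range, with changes of -0.49 in M7 over R7 (adjusted p = 0.378), 0.01 in M7 over B7 (adjusted p = 0.985) and -0.50 in B7 over R7 (adjusted p = 0.421). On day 9 Apln stood at 272, 191 and 293 in M9, at 178, 188 and 204 in B9 and at 258, 339 and 228 in R9. M9 overlapped both other groups, and B9 lay below R9 in every library. The changes were -0.13 in M9 over R9 (adjusted p = 0.816), 0.38 in M9 over B9 (adjusted p = 0.470) and -0.51 in B9 over R9 (SE 0.43, adjusted p = 0.470).

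**Figure D2:**
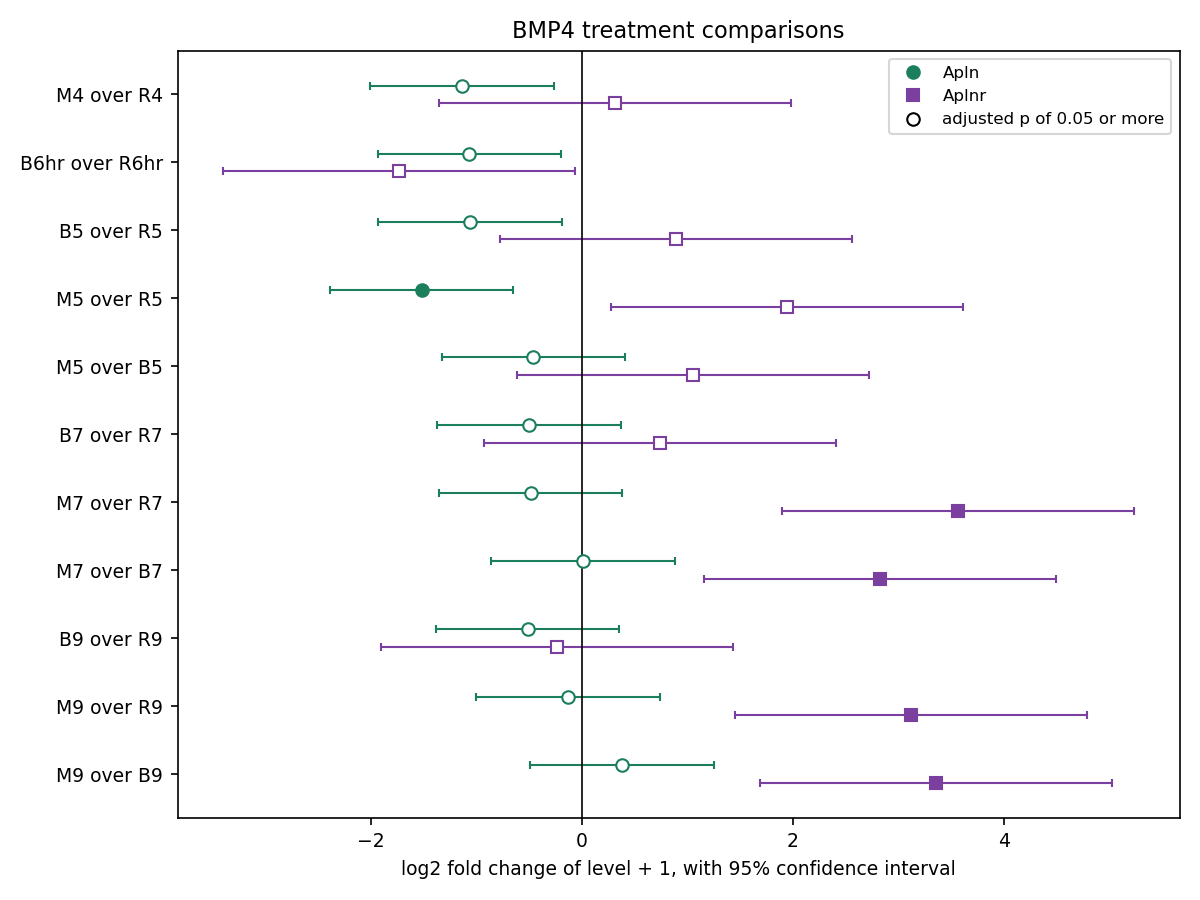
Log2 fold change of Apln and Aplnr in the 11 BMP4 treatment comparisons, with 95% confidence intervals; filled symbols passed an adjusted p under 0.05 and open symbols did not. Aplnr passed in the 4 comparisons that set M against R or B on days 7 and 9, and Apln passed in M5 over R5.

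Whether an effect differed between days was tested as the difference of the effects. Between neighbouring days none of 6 such differences passed for either gene, in comparisons where 0.098% to 11.9% of genes were called. The largest was that of Aplnr in B over R, day 5 minus 6 h, at 2.62 on the log2 scale (SE 1.16, unadjusted p = 0.0307, adjusted p = 0.472), where 0.526% of genes were called. For M over R, the Aplnr effect of day 5 minus that of day 4 was 1.63 (SE 1.16, adjusted p = 0.441), where 6.75% of genes were called. The Aplnr effect of day 7 minus that of day 5 was 1.63 (SE 1.16, 95% confidence interval -0.73 to 3.99, adjusted p = 0.391), where 11% of genes were called. The Apln effect of day 7 minus that of day 5 in the same arms was 1.03 (SE 0.60, adjusted p = 0.282). A further 6 differences, between days that are not neighbours, were added after the data were seen, in comparisons where 0.463% to 38.9% of genes were called, and 1 of them passed. The Aplnr effect of M over R was higher on day 7 than on day 4 by 3.25 on the log2 scale (SE 1.16, 95% confidence interval 0.89 to 5.61, adjusted p = 0.0461), where 18.7% of genes were called. That call was lost without any 1 of 7 of the 12 libraries, among them R4 replicate 2 (2.48, adjusted p = 0.144). The same effect on day 9 minus day 4 was 2.81 (SE 1.16, adjusted p = 0.0608), and on day 9 minus day 5 it was 1.18 (SE 1.16, adjusted p = 0.437). The Apln effect of day 9 minus that of day 5 was 1.39 (SE 0.60, adjusted p = 0.0671), where 38.9% were called. A receptor effect called on days 7 and 9 and not on day 5 was thus not shown to differ from that of day 5.

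Within an arm neither gene passed the test in any of 9 time steps, in which 4% to 31.2% of genes were called. The steps from R4 to B6hr and from R4 to R6hr were not among them. The group mean of the ligand was lowest on day 5 in M and B and on day 7 in R. Its log2 change was 1.27 in M9 over M7 (SE 0.43, adjusted p = 0.088), where 4% of genes were called, and the groups did not overlap. It was 0.90 in B9 over B7 (SE 0.43, adjusted p = 0.162), with 14.2% called, and 0.92 in R9 over R7 (SE 0.43, adjusted p = 0.128), with 20.3% called, also without overlap. The M9 over M7 step was called without the D0 and D3 libraries (adjusted p = 0.0494), and the R9 over R7 step with the compared libraries alone (0.045). The receptor in the R arm had a change of -1.91 in R5 over R4 (SE 0.82, adjusted p = 0.121), with 12.7% of genes called, and -1.22 in R7 over R5 (SE 0.82, adjusted p = 0.363), with 11.2% called, and in neither step did the groups overlap. In the M arm its changes were -0.28 in M5 over M4, 0.41 in M7 over M5 and -0.27 in M9 over M7, with adjusted p-values of 0.877, 0.812 and 0.928. From 6 h to 24 h of BMP4, in B5 over B6hr, it was 1.70 (SE 0.82, adjusted p = 0.113), with 28.4% called. The authors' deposited table gives 2.22 for that step, turned to B5 over B6hr, with a false discovery rate of 0.0339. For the step before it, both genes were lower in B6hr than in R4 there. The deposited log2 change of R4 over B6hr was 3.01 for Aplnr (false discovery rate 0.0112) and 1.09 for Apln (0.0838). Under RA alone, that of R4 over R6hr was 1.45 for Aplnr (0.305) and -0.09 for Apln (0.931).

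In the order of group means, the ligand ran D3 (2252 ± 1366, SD, n = 3), R9 (275 ± 57.5), R6hr, M9, R4, R5, B9, R7, B6hr, M4, M7, B7, B5, M5 (72.6 ± 14.1) and D0 (14.8 ± 8.70). Of its 14 neighbouring pairs 11 overlapped, and those that did not were D3 with R9, B9 with R7 and M5 with D0. The receptor ran D3 (1326 ± 1825), M7 (359.5 ± 208), R4 (316 ± 314), M4, M9, M5, B5, R6hr, R5, B7, B6hr, R9, R7, B9 (25.3 ± 7.48) and D0 (3.80 ± 2.55). Of its 14 pairs 12 overlapped, and the others were R6hr with R5 and B9 with D0. Every M group thus stood among the first 6 for the receptor, while for the ligand the groups of the R arm filled 4 of the first 6 places.

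The ratio of ligand to receptor averaged lower in M than in B and R on each day on which they were sampled together. The log2 ratio of Apln to Aplnr, each as level + 1, averaged -1.42 in M4, -1.71 in M5, -1.61 in M7 and -0.07 in M9. In the B arm it averaged 1.55 in B6hr, -0.20 in B5, 1.20 in B7 and 2.90 in B9. In the R arm it averaged 0.03 in R4, 0.89 in R6hr, 1.75 in R5, 2.44 in R7 and 3.18 in R9. D0 and D3 both averaged 1.71, with libraries from 1.47 to 1.92 in D0 and from 0.16 to 3.08 in D3. Each of these ratios is a score over the 2 members and was not tested. On days 7 and 9 the M libraries ran from -2.22 to 0.30, the B libraries from 0.78 to 3.23 and the R libraries from 1.89 to 3.67, so M did not overlap B or R. To set one gene's level against the other, each was divided by its exonic length of 3149 bases for Apln and 3699 bases for Aplnr. The levels carry no unit, so whether they scale with length is unknown, and the counts that follow hold only if they do. Per kilobase the ligand was the higher one in 2 of 12 M libraries, both of them in M9, in 11 of 12 B libraries, in 13 of 15 R libraries and in 6 of 6 D0 and D3 libraries. M9 replicate 1 was counted so only through the division, with a log2 ratio of -0.0036 as level + 1 and 0.23 per kilobase. The library with the higher receptor in the B arm was B5 replicate 3, at a log2 ratio per kilobase of -1.46, below all M9 libraries. R4 replicate 2 and R6hr replicate 3 were those of the R arm.

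**Figure D3:**
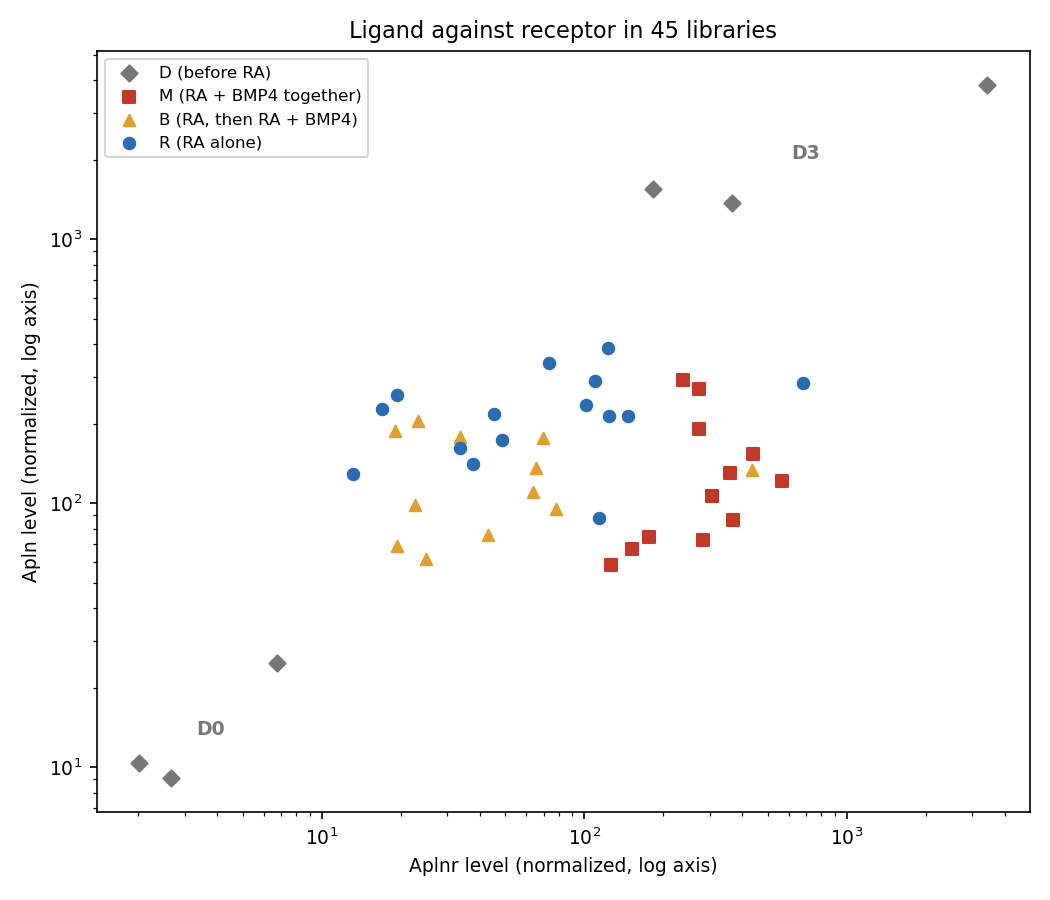
Apln level against Aplnr level in the 45 libraries, both on log axes; colours and symbols mark the arms, and D0 and D3 are named. The M libraries (red squares) lie to the right of most B and R libraries, and D0 and D3 lie at the low and high ends of the ligand axis.

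The correlation of ligand and receptor across libraries was near 0 once the D0 and D3 libraries were left out. Pearson's r of the log2 levels was 0.59 over 45 libraries (Spearman's rho 0.29) and 0.58 over 15 group means. Without D0 and D3 it was 0.02 over 39 libraries and -0.19 over 13 group means. Within groups, the deviations of the 45 libraries from their group means had r = 0.68 and rho = 0.78, so a library high in one gene for its group tended to be high in the other. These libraries share cultures, processing and normalization, and the values are a description. The same deviations correlated with those of the mean log2 level of the caudal progenitor list at 0.62 for Apln and 0.74 for Aplnr. These were the largest in size among the gene lists. For Apln the values were also -0.56 with the lateral and cardiac mesoderm list and 0.54 with the paraxial mesoderm list. For Aplnr they were also -0.48 with the pluripotency list and -0.47 with the neuron list. The part of progenitor content, or of other cell types, in the spread between replicates was not tested.

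The genes with the pattern most like each member were ranked by Pearson's r over the 45 libraries among all 11220 genes. For Apln they were Mgea5 (r = 0.92 over the libraries, 0.95 over the 15 group means), which encodes the enzyme that removes O-GlcNAc from proteins, Fam53b (0.91, 0.93), Appl1 (0.90, 0.94), Shc4 (0.90, 0.94), Gabrb2 (0.90, 0.96) and Rimkla (0.89, 0.93). Over the 39 libraries without D0 and D3 these were between 0.55 for Appl1 and 0.69 for Mgea5, and 0 of the 6 stood among the first 6 by Spearman's rho. For Aplnr they were Plxnd1 (0.88, 0.91), which encodes a semaphorin receptor, Lef1 (0.87, 0.89), a transcription factor of WNT signalling, Mum1l1 (0.87, 0.92), Trim21 (0.87, 0.91), Mogat2 (0.87, 0.87) and Lrp5 (0.86, 0.91), a WNT co-receptor. Without D0 and D3 the values of these 6 were between 0.76 for Mogat2 and 0.87 for Plxnd1. Of the 6, only 1, Mum1l1, stood among the first 6 by r over the 15 group means. By Spearman's rho 2 did, Plxnd1 and Mum1l1.

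Markers of several cell types moved with the arms, among them lateral and cardiac mesoderm upward in M and neural cells downward. Of 13 paraxial mesoderm markers, 0 were called higher and 11 lower in M4 over R4, beside 6.76% and 7.37% of all genes. In M5 over R5 there were 1 and 8, beside 21% and 23.3%. In M7 over R7 there were 4 and 4, beside 22.9% and 20.6%. In M9 over R9 there were 6 and 4, beside 27.5% and 23.5%. Of 14 lateral and cardiac mesoderm markers, 12 were called higher and 0 lower in M7 over R7, beside 22.9% and 20.6% of all genes, and 12 and 0 in M9 over R9, beside 27.5% and 23.5%. In M7 over B7 there were 11 higher and 0 lower, beside 21.7% and 19.9%, and in M9 over B9 there were 9 and 0, beside 27.8% and 23.7%. The median log2 change of the list was 4.58 in M7 over R7, beside 0.01 over all genes. The summed level of the list was 16580.2 to 22492 in M7, 3716 to 5539.9 in B7 and 1151 to 2168 in R7. On day 9 it was 8375 to 15594 in M9, 3107 to 5315 in B9 and 998 to 1418 in R9. Hand1, a lateral mesoderm factor, stood at 1168, 1148 and 942 in M7, at 16.8, 13.9 and 18.5 in B7 and at 6.17, 10.0 and 12.4 in R7. The list was already high on day 4, at 14089 to 22702 in M4 against 1765 to 3235 in R4, where Aplnr overlapped between the groups. Of 10 surface ectoderm markers, 6 were called higher and 0 lower in M4 over R4, beside 6.76% and 7.37% of all genes. There were 5 and 0 in M5 over R5, 5 and 1 in M7 over R7 and 4 and 1 in M9 over R9. In M7 over B7 there were 6 and 1, and in M9 over B9 5 and 1, all beside the shares given above. The part of lateral or paraxial mesoderm, or of surface ectoderm, in the receptor levels was not tested.

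Neural markers ran the other way. Of 10 neural progenitor markers, 0 were called higher and 9 lower in M7 over R7, beside the 22.9% and 20.6% given above, and 0 and 8 in M9 over R9, beside 27.5% and 23.5%. In M7 over B7 there were 0 higher and 8 lower, beside 21.7% and 19.9%, and in M9 over B9 there were 1 and 6, beside 27.8% and 23.7%. Of 10 neuron markers, 0 were called higher in any of these comparisons, and 7 were lower in M7 over R7, 10 in M7 over B7, 6 in M9 over R9 and 8 in M9 over B9, beside the same shares of all genes. The summed level of the neural progenitor list was 5852 to 13273 in M7, 21187 to 29998 in B7 and 34129 to 44463 in R7. That of the neuron list was 2398 to 7092 in M7, 41409 to 56035 in B7 and 6140 to 21110.2 in R7. The neural progenitor list was already low in the M arm on day 5, with 0 higher and 10 lower in M5 over R5, beside 21% and 23.3%, where Aplnr was not called and Apln fell. Of 15 pluripotency markers, 13 were called higher and 1 lower in M5 over R5. There were 1 and 1 in M7 over R7 and 0 and 2 in M7 over B7. In M9 over R9 there were 0 and 12, and in M9 over B9 0 and 14, all beside the shares given above. Their summed level was 3531 to 5523 in M9, 15124 to 24292 in B9 and 15566 to 24513 in R9. The part of neural or pluripotent cell content in the levels of either gene was not tested.

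Endothelial markers are given beside the receptor because it is known from blood vessels. Of 17 analysed, 13 were called higher and 0 lower in M7 over R7, beside 22.9% and 20.6% of all genes, and 2 and 1 in M7 over B7, beside 21.7% and 19.9%. On day 9 there were 3 and 3 in M9 over R9, beside 27.5% and 23.5%, and 1 and 4 in M9 over B9, beside 27.8% and 23.7%. Except for the higher count of M7 over R7, these counts came to smaller shares than those of all genes. On earlier days there were 8 higher and 0 lower in M4 over R4, beside 6.76% and 7.37%. There were 11 and 0 in M5 over R5, beside 21% and 23.3%, and 7 and 0 in M5 over B5, beside 8.57% and 9.23%. In B over R there were 2 and 0 on day 5, beside 2.76% and 3.23%. On day 7 there were 9 and 0, beside 12.1% and 11.6%. At 6 h, beside 0% and 0.0178%, and on day 9, beside 6.12% and 5.71%, there were 0 of either kind. The summed level of the list was 2734 to 3296 in M9, 3046 to 3883 in B9 and 2277 to 3079.9 in R9. M9 overlapped both other groups. For Aplnr M9 lay above both, and B9 and R9 overlapped. The vascular receptor Kdr stood at 715, 848 and 905 in M7, at 377, 437 and 527 in B7 and at 325, 369 and 129.9 in R7. The junction gene Cdh5 stood at 106, 278 and 470.3 in M7, at 102, 197 and 301 in B7 and at 41.1, 47.5 and 26.3 in R7. Pecam1, an adhesion gene that stem cells also express, stood at 396, 199.9 and 308 in M7, at 412, 454 and 334 in B7 and at 48.1, 82.5 and 50.3 in R7. On day 9 it was lower in M9, at 232, 68.0 and 204, than in B9, at 428, 507 and 689, without overlap, and it was 275, 219 and 278 in R9. In D0 it was 1207, 1163 and 2402. Etv2 was not analysed here. Apln is known to belong to the hypoxia response genes in other cells. Of 19 such genes, 3 were called higher and 4 lower in M5 over R5, where Apln fell, beside 21% and 23.3% of all genes. Vegfa was 1072, 787 and 998 in M5 and 925, 1431 and 1186 in R5. Where Apln was not called, there were 7 and 0 in B7 over R7, beside 12.1% and 11.6%. There were 0 and 12 in M7 over B7, beside 21.7% and 19.9%, and 7 and 2 in M9 over R9, beside 27.5% and 23.5%. The part of hypoxia in the levels of Apln was not tested.

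**Figure D4:**
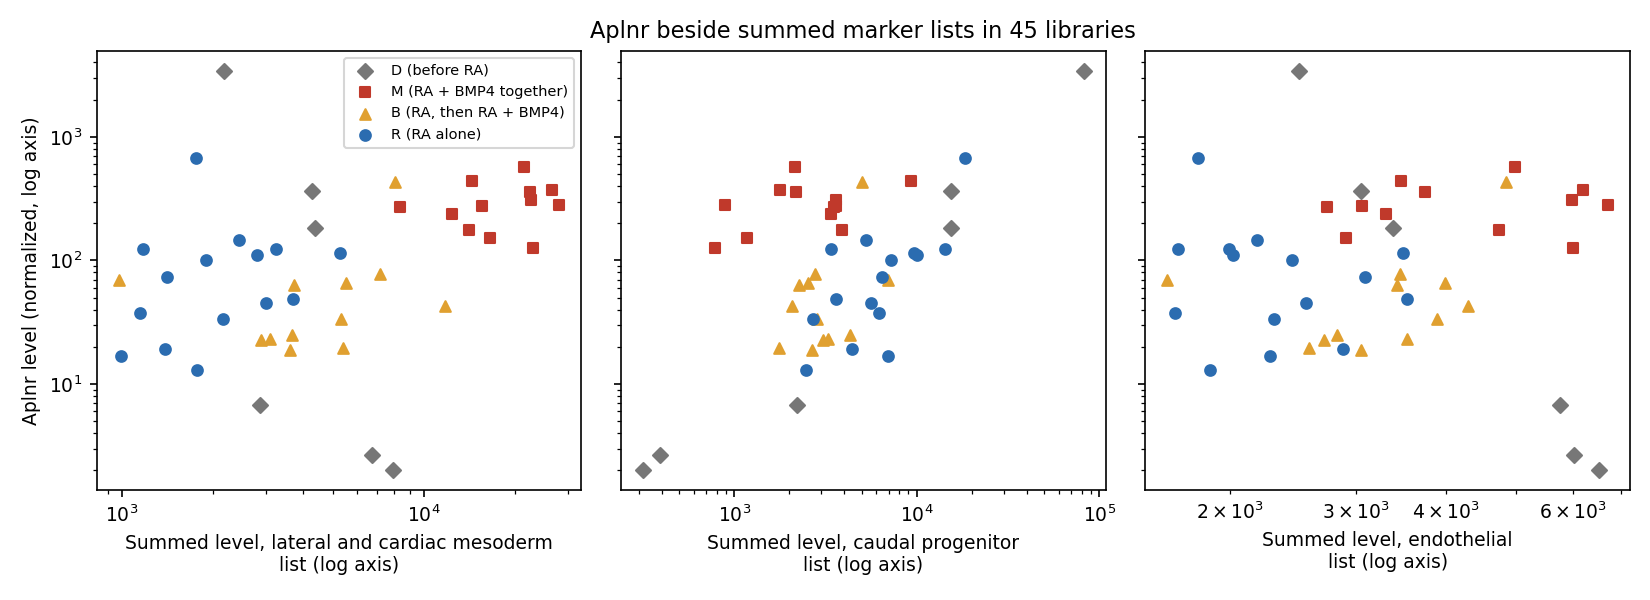
Aplnr level against the summed level of 3 marker lists in each of the 45 libraries, all on log axes, with symbols for the arms. The M libraries of all days lie at the right of the lateral and cardiac mesoderm panel, from 8375 upward, with B5 replicate 1, at 11787, among them, and D3 replicate 1 lies at the far right of the caudal progenitor panel, at 81819.

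The second ligand, Apela, had a pattern of its own. On day 5 it was highest in the B arm, at 196, 175 and 93.5 in M5, 369.6, 347 and 301 in B5 and 139, 130.0 and 121 in R5. All B5 libraries lay above all others of that day. It rose in B5 over R5 by 1.37 on the log2 scale (SE 0.35, adjusted p = 0.0165) and was lower in M5 than in B5 by -1.19 (SE 0.35, adjusted p = 0.0164). The first call was lost without B5 replicate 1 or 2 or R5 replicate 2 or 3 (adjusted p = 0.0523 to 0.0809) and the second without M5 replicate 3 (0.112). On day 7 Apela stood at 1259.8, 837 and 336 in M7, 473, 311 and 433 in B7 and 259.9, 329 and 302 in R7. It was higher in M7 than in R7 by 1.26 (SE 0.35, adjusted p = 0.00411), and this was lost without M7 replicate 1 (0.0676) or with the compared libraries alone (0.0845). It rose between days 5 and 7, by 2.26 in M7 over M5 (SE 0.35, adjusted p = 4.03e-05, 12.5% of genes called) and by 1.18 in R7 over R5 (SE 0.35, adjusted p = 0.0262). On day 9 it stood at 359, 468 and 402 in M9, 213, 233 and 232 in B9 and 173, 172 and 261 in R9, and M9 lay above the other groups of the day. The changes were 1.04 in M9 over R9 (SE 0.35, adjusted p = 0.0148) and 0.85 in M9 over B9 (SE 0.35, adjusted p = 0.043). Leaving out M9 replicate 2 or R9 replicate 1 or 2 lost the first (0.0527 to 0.059), and leaving out any of the 6 libraries lost the second (0.0527 to 0.131), as did adjustment over the 16014 genes of the authors' test (0.0614). With the replicate block and the compared libraries alone the adjusted p was 0.190 in B5 over R5 and 0.132 in M7 over R7.

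Beside Apln and Aplnr, 27 gene symbols were listed for the apelin pathway, Grk2 and its older name Adrbk1 both among them, and 21 were analysed. Apela is 1 of the 21, so its calls given above count again here. Counted in limma-trend, 5 of the 21 were called higher and 2 lower in M4 over R4, beside 6.76% and 7.37% of all genes. In M5 over R5 there were 9 higher and 5 lower, beside 21% and 23.3%. In M7 over R7 there were 6 and 4, beside 22.9% and 20.6%, and in M9 over R9 there were 10 and 5, beside 27.5% and 23.5%. In M over B there were 4 higher and 4 lower on day 5, beside 8.57% and 9.23%, then 8 and 3 on day 7, beside 21.7% and 19.9%, and 8 and 3 on day 9, beside 27.8% and 23.7%. In B over R there were 0 of either kind at 6 h, beside 0% and 0.0178%, and 3 higher and 5 lower with the replicate block and the compared libraries alone. On day 5 there were 3 higher and 1 lower, beside 2.76% and 3.23%, on day 7 there were 4 and 4, beside 12.1% and 11.6%, and on day 9 there were 2 and 3, beside 6.12% and 5.71%. Where 44.3% of all genes were called in M5 over R5, 14 of the 21 were, and where 51% were called in M9 over R9, 15 of the 21 were. The median log2 change of the list was 0.18 in M5 over R5, beside -0.02 over all genes, and 0.32 in M9 over R9, beside 0.04. With the compared libraries alone the 7 calls of M4 over R4 became 1, the 4 of B5 over R5 became 2, the 8 of B7 over R7 became 4, the 8 of M5 over B5 became 5 and the 11 of M7 over B7 became 7. With single libraries left out the count fell to as few as 3 in M4 over R4 and B7 over R7, 1 in B5 over R5 and 2 in B9 over R9.

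Among the processing enzymes, Furin, a protease that cleaves precursors of secreted proteins, was higher in M than in R and B. It averaged 3716 ± 236 in M7, 1435 ± 112 in B7 and 1758 ± 71.5 in R7 (SD, n = 3 each). Its log2 change was 1.08 in M7 over R7 (SE 0.10, adjusted p = 3.76e-10) and 1.37 in M7 over B7 (SE 0.10, adjusted p = 6.45e-12). In M5 over R5 it was 1.04 (SE 0.10, adjusted p = 1.2e-09).

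Among receptors reported to pair with Aplnr, the angiotensin receptor gene Agtr1a and the kappa opioid receptor gene Oprk1 moved in opposite directions in M over R on days 5, 7 and 9. Agtr1a averaged 50.5 ± 11.6 in M5, 154 ± 92.0 in B5 and 976 ± 200 in R5 (SD, n = 3 each), with log2 changes of -4.25 in M5 over R5 (SE 0.44, adjusted p = 4.39e-09) and -2.79 in B5 over R5 (SE 0.44, adjusted p = 0.000208). Oprk1 averaged 66.6 ± 19.2 in M5, 29.7 ± 12.6 in B5 and 8.57 ± 3.89 in R5, with changes of 2.86 in M5 over R5 (SE 0.45, adjusted p = 5.06e-06) and 1.69 in B5 over R5 (SE 0.45, adjusted p = 0.0212). On day 7 Agtr1a averaged 42.8 ± 9.75 in M7, 55.2 ± 15.1 in B7 and 569 ± 41.4 in R7, a change of -3.72 in M7 over R7 (SE 0.44, adjusted p = 4.58e-08). Oprk1 averaged 86.0 ± 28.5 in M7, 7.63 ± 2.97 in B7 and 3.95 ± 2.69 in R7, a change of 4.21 in M7 over R7 (SE 0.45, adjusted p = 5.52e-09). In M9 over R9 the changes were -1.24 for Agtr1a (SE 0.44, adjusted p = 0.0203) and 2.04 for Oprk1 (SE 0.45, adjusted p = 0.00037). In B9 over R9 both were lower, by -2.09 for Agtr1a (SE 0.44, adjusted p = 0.00264) and -1.44 for Oprk1 (SE 0.45, adjusted p = 0.0324).

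Among genes downstream of the receptor, Nos3, the endothelial nitric oxide synthase, averaged 145 ± 31.1 in M5 and 13.4 ± 3.87 in R5, a log2 change of 3.35 (SE 0.40, adjusted p = 5.64e-08). Mtor, a growth kinase, averaged 2279 ± 197 in M9, 3380.2 ± 189 in B9 and 3331 ± 196 in R9, with log2 changes of -0.55 in M9 over R9 (SE 0.08, adjusted p = 1.85e-06) and -0.57 in M9 over B9 (SE 0.08, adjusted p = 1.69e-06). Of the receptor's signal partners, Grk5, a kinase that turns off such receptors, averaged 292 ± 15 in M9 and 139 ± 28.6 in R9, a change of 1.09 (SE 0.16, adjusted p = 1.94e-06). The pathway genes named here were picked by smallest adjusted p, and the rest of the list is not shown. Aplnr itself was not called in M5 over R5. Whether any of these changes followed from the receptor was not tested.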

How the data were processed

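The authors deposited 1 table of 11220 genes with a normalized signal level per library for all 45 libraries, whose header names no unit. No value is 0 and 1 is a whole number (no tolerance), so they are not counts, and whole reads could not be recovered. The listed levels sum to 12245725 to 15868724 per library, and depth is unknown, although the labels' protocol states 30000000 reads per sample. Columns headed fpkm, deposited by the authors and treated as a score, are the level to the power 0.301 times gene and library constants, and took no part. In the authors' deposited table the log2 fold changes, p-values and false discovery rates imply adjustment over 16014 genes. The submitters' processing notes name Picard, edgeR and mm10 with no role or version, and the sources used here give no aligner or annotation. For RA the labels give 2 intervals that differ, and the day in each title was used.

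log2(level + 1) was fitted with limma 3.58.1 in R 4.3.3 (trend, robust, 1 coefficient per group, all libraries), in 37 comparisons with Benjamini-Hochberg adjustment over the 11220 genes. Fold changes on that scale understate the change of low genes. The filter, a level of 1 or more in 3 libraries, took out 0 genes. The script was tested on simulated data. Apln and Aplnr and all lists were chosen with earlier results of these data known. Named genes are the members, Apela, the 6 most alike genes per member among those with a highest group mean level of at least 5, up to 3 pathway genes per comparison by smallest adjusted p, and fixed markers. Coordinates and exonic lengths are from GENCODE M21. Python 3.11.15 with pandas 2.3.3 and matplotlib 3.10.9 gave the plots.

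Same-numbered libraries counted as pairs only where every same-numbered pair of deviations from group means correlated above 0.1. This held for B6hr with R6hr (0.59, 0.19 and 0.46, and 0.15 or less for unlike numbers), as a pattern in the data and not in the labels, and the other 10 treatment comparisons did not. Other settings were pseudocounts of 0.1 and 5, the compared libraries alone, a replicate block, leaving out each library, a mean level of at least 10, no filter, quantile normalization, adjustment over 16014 genes and the authors' deposited test. Added after seeing the data were the block within the compared libraries, a fit without D0 and D3, repeats for the pathway list, and 6 differences of effects between days that are not neighbours.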

Additional observations from a re-analysis of the deposited data

Results flagged for a closer look

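The Aplnr effect of M over R differed between day 7 and day 4 by a test of the difference itself, at 3.25 on the log2 scale (SE 1.16, limma-trend adjusted p = 0.0461). The effect was 3.57 on day 7 and 0.31 on day 4. The difference was set up after the data were seen, and 5 of the 12 fits that leave out 1 library kept the call. R4 replicate 2, with an Aplnr level of 679 against 147 and 124 in the other R4 libraries, was high in Meox1, and its part in the day 4 effect was not tested.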

How the results depend on the processing

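Of 70 tested results for the members, changes from D3 not among them, 10 were called, and 8 of these kept direction and call under every alternative and every left-out library. The exceptions were Apln in B over R, at -0.76 to -0.60 with libraries left out, with the call lost in 3 of 18 cases, and the Aplnr difference of effects for M over R, day 7 minus day 4. This was at 2.48 to 3.78 with libraries left out, and its call was also lost with the replicate block (3.25, adjusted p = 0.0542), with the compared libraries alone (3.25, 0.0628), under quantile normalization (3.01, 0.0771) and with adjustment over 16014 genes (3.25, 0.0658). With the compared libraries alone, Aplnr was called in B6hr over R6hr (-1.73, adjusted p = 0.0498) and M5 over R5 (1.94, 0.0158), and Apln in R9 over R7 (0.92, 0.045). So were the differences of effects for M over R of Aplnr, day 9 minus day 4 (2.81, 0.0455), and Apln, day 9 minus day 5 (1.39, 0.00537). With the replicate block and the compared libraries alone, Apln (-1.06, 0.00633) and Aplnr (-1.73, 0.00484) were called in B6hr over R6hr, and Aplnr in M5 over R5 (1.94, 0.0449). The block over all libraries changed no other call of a member. Without D0 and D3, calls were made for Apln in M4 over R4 (-1.13) and M9 over M7 (1.27), for Aplnr in M5 over R5 (1.94), and for the differences of effects of Aplnr, day 9 minus day 4 (2.81), and Apln, day 9 minus day 5 (1.39). Under quantile normalization the sign turned for Apln in M over B (0.11), B7 over B5 (-0.16) and B over R, day 5 minus 6 h (-0.062), and for Aplnr in R9 over R7 (-0.21), none of them called. In the authors' deposited test, turned to the same direction, Aplnr was -0.035 in M4 over R4 and 2.22 in B5 over B6hr, the second called. The correlation of ligand and receptor over group means turned to -0.19 without D0 and D3. The cause of these changes was not tested.

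With libraries left out, Apln in M4 over R4 ran from -1.40 to -0.88 and Aplnr in M5 over R5 from 1.62 to 2.39. The Aplnr difference of effects for M over R, day 9 minus day 4, ran from 2.03 to 3.46. Sign changes were limited to results not called and to the untested difference of Aplnr between M4 and D3, which ran from -1.96 to 0.15. For Aplnr the ranges were -0.13 to 1.09 in M4 over R4, -0.63 to 0.17 in M5 over M4, -0.038 to 0.93 in M7 over M5 and -0.79 to 0.16 in M9 over M7. They were -0.48 to 0.55 in R9 over R7, -0.071 to 1.58 in B5 over R5 and -0.60 to 0.42 in B9 over R9. The Aplnr difference of effects ran from -0.84 to 0.81 for B over R, day 7 minus day 5, and from -0.97 to 0.21 for M over R, day 9 minus day 7. For Apln the ranges were -0.41 to 0.34 in B5 over B6hr, -0.18 to 0.31 in B7 over B5, -0.26 to 0.31 in M7 over B7, -0.26 to 0.056 in M9 over R9 and -0.11 to 0.078 in M over B. The Apln difference of effects ran from -0.42 to 0.64 for B over R, day 5 minus 6 h, and from -0.29 to 0.19 for day 9 minus day 7.

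The number of all genes called moved with the libraries in the fit. With the compared libraries alone it was 364 in place of 1586 in M4 over R4, 847 in place of 2 in B6hr over R6hr, 97 in place of 672 in B5 over R5, 1020 in place of 1997 in M5 over B5, 1475 in place of 2661 in B7 over R7 and 3238 in place of 4882 in M7 over R7. It was 920 in place of 3657 in M4 over D3, 1046 in place of 2722 in R4 over D3, 496 in place of 1163 in M5 over M4, 477 in place of 1430 in R5 over R4, 1181 in place of 3182 in B5 over B6hr, 236 in place of 1260 in R7 over R5, 923 in place of 2274 in R9 over R7 and 168 in place of 449 in M9 over M7. With the replicate block as well it was 340 in M4 over R4, 2902 in B6hr over R6hr, 2 in B5 over R5, 0 in B7 over R7 and 1274 in M7 over R7, and it was 2214 in place of 1328 in B9 over R9. Single libraries also moved the count by over 1.5 times. It fell to 876 in M4 over R4 without M4 replicate 2, to 196 to 341 in B5 over R5 without B5 replicate 1 or 2 or R5 replicate 2 or 3, to 1026 to 1225 in M5 over B5 without M5 replicate 1 or 2 or B5 replicate 3, to 1441 and 1766 in B7 over R7 without B7 replicate 1 or R7 replicate 3, and to 556 to 770 in B9 over R9 without B9 replicate 1 or 3 or R9 replicate 2 or 3. In the time steps the lowest counts were 629 in R7 over R5 and 517 in R5 over R4, each without R5 replicate 3, 636 in M5 over M4 and 882 in M7 over M5, each without M5 replicate 2, 1401 in B5 over B6hr without B6hr replicate 1, 2104 in B7 over B5 without B5 replicate 3, 915 in B9 over B7 without B9 replicate 3, 1353 in R9 over R7 without R9 replicate 3 and 193 in M9 over M7 without M9 replicate 1. Depth is unknown, so how it limits the low values of Aplnr in D0 cannot be given.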
